A study of Mus musculus with 26 samples.

Results

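Bisulfite conversion of an M-ATAC library was examined by comparing the peaks of 4 converted M-ATAC libraries with those of 2 M-ATAC-NC libraries, aliquots of tagmented DNA kept before conversion, among the 26 samples of the study. Peak regions of the 6 libraries that overlapped by at least 1 bp were merged into 51688 union regions. Of these, 388 held a peak in all 4 M-ATAC and neither M-ATAC-NC library (M-ATAC only, 0.751% of the union regions). Another 1453 held a peak in both M-ATAC-NC libraries and no M-ATAC library (NC only, 2.81%), and 13836 held one in all 6 (shared, 26.8%). The remaining 36011 union regions were called in some other combination. The M-ATAC only regions were led by short sequences that recur elsewhere in the genome. No shared region differed in fold enrichment past the threshold when the 4 M-ATAC libraries were compared with both controls unpaired. With M-ATAC 1 and 2 alone, 219 of the 13836 shared regions did unpaired, and 596 when paired with the controls in numbered order. With M-ATAC 3 and 4 alone, these numbers were 4 and 31. The labels give neither pairing, so both are alternatives.

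All libraries came from KH2 mouse embryonic stem cells (mESC), a line grown on irradiated feeder cells in medium with 15% FBS and 1000 U/mL LIF, and feeders were removed by pre-plating for 30 min. In M-ATAC, 50000 cells were tagmented by Tn5 transposase loaded with methylated adaptors, and the fragments were converted with bisulfite. M-ATAC-NC shared every step up to conversion, and the labels do not say which M-ATAC reaction each aliquot came from. Libraries read here but not used to define the classes were 2 ATAC and 2 CTCF ChIP libraries, both made with Nextera transposase and unconverted. The labels do not say that the replicates of a group were separate cultures, so p-values measure only the spread between these samples.

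Tn5 inserts adaptors into DNA that is free of nucleosomes, so that fragments pile up at active promoters, enhancers and insulators. Bisulfite deaminates unmethylated cytosine, which is then read as thymine, while methylated cytosine is protected. Conversion also breaks DNA and leaves reads with fewer bases to tell copies of a sequence apart, and open CpG-rich promoters in mESC are largely unmethylated, so nearly all of their cytosines are converted.

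The strongest regions of each class are printed with 201 bases centred on the highest summit, the base of deepest coverage. Bases are those of the plus strand of GRCm38 (mm10), and capitals mark CpG, the dinucleotide in which mouse DNA is mainly methylated. Regions that touch an annotated UTR are not printed. The first 3 M-ATAC only regions are shown because they belong to a group of sequences that resemble one another.
Gm15564 region, chr16:35981633-35981833: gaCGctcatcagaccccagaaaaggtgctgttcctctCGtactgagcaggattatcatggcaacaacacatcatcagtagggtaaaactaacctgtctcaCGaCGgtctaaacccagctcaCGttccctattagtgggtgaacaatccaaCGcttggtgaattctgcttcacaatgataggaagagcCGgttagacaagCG
chromosome 6 region, chr6:49236418-49236618: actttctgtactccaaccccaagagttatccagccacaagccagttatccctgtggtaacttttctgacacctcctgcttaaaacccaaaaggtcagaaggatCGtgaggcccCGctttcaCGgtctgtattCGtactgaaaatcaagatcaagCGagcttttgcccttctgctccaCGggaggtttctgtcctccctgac
Fgfr2 region, chr7:130834465-130834665: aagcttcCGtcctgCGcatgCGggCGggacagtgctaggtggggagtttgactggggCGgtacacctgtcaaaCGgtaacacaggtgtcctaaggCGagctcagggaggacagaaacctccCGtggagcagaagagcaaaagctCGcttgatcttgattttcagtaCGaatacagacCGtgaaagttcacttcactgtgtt
The first 3 NC only regions are shown for contrast.
chromosome X region, chrX:134621784-134621984: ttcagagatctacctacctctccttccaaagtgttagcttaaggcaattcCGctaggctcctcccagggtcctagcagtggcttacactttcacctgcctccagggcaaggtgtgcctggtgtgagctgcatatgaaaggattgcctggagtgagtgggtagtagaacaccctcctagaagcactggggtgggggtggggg
chromosome 9 region, chr9:6823989-6824189: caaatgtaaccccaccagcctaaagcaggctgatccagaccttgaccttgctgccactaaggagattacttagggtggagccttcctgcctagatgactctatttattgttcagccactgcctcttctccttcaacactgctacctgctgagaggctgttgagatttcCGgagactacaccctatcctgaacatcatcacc
AC132253.9 region, chr19:9837000-9837200: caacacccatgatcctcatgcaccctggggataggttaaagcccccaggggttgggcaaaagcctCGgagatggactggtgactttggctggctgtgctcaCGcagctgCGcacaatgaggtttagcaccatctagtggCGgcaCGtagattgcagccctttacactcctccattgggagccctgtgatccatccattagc
Among shared regions, those at Gm13340, Gphn and Gm26561 are shown, since they ranked next after a region in Lars2 and the last pair resembles the M-ATAC only regions.
Gm13340 region, chr2:22589647-22589847: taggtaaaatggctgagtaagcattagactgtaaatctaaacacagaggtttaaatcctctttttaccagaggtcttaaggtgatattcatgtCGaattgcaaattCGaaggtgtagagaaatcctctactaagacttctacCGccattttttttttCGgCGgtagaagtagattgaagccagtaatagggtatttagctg
Gphn region, chr12:78350891-78351091: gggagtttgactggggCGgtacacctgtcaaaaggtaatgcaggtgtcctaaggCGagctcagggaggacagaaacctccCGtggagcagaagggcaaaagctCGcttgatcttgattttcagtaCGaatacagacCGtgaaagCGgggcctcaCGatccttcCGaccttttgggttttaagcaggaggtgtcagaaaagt
Gm26561 region, chr17:70963647-70963847: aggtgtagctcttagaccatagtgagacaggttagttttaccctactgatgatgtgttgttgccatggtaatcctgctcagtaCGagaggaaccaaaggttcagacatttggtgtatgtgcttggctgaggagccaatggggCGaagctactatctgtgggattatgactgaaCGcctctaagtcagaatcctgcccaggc

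The 3 strongest M-ATAC only regions were short, and each had exact runs of 30 bases in common with other named regions, on either strand. The region in an exon of Gm15564, an antisense transcript, spanned chr16:35981666-35981816. Fold enrichment is the pileup of fragments at the summit over the local background, after the peak caller adds a constant to each. For this region it was 37.5, 38.7, 34.9 and 42.2 in M-ATAC replicates 1 to 4, from 138, 155, 148 and 148 fragments. The second, chr6:49236451-49236610, lay between genes and had fold enrichments of 22.6, 19.4, 28.9 and 23.0. The third, chr7:130834496-130834641, lay in an intron of Fgfr2, which encodes a fibroblast growth factor receptor, and had fold enrichments of 21.5, 21.7, 24.1 and 18.5. All 4 libraries were high at each of them, and none of the 3 had a peak in either M-ATAC-NC library.

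Of the 122, 131 and 117 runs of 30 bases in these 3 regions, 70, 71 and 19 also stood in the strongest shared region. That region, chr9:123461798-123462185, lies over a UTR of Lars2, the gene of the mitochondrial leucyl-tRNA synthetase. Shared regions in introns of Gphn (chr12:78350870-78351174) and Gm26561 (chr17:70963666-70963896) had 93 and 44 such runs in common with it. Gphn encodes gephyrin, a scaffold of inhibitory synapses. Besides the Lars2 region, 6 union regions held such a run, of which 3 were M-ATAC only (0.773% of 388), 2 were shared (0.0145% of 13836) and 1 was called in 1 M-ATAC library. None of the 1453 NC only regions did, where 3 regions would be 0.206%. This comparison of sequences was chosen after the values were seen.

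The next 2 M-ATAC only regions did not belong to that group. The fourth, chr13:9834310-9834514, lay 11 bp from the start of the miRNA gene Gm24187 and had fold enrichments of 19.5, 21.01, 16.7 and 21.5, with 11.2 CpG per 100 bp. The fifth, chr17:62058066-62058314, lay between genes with fold enrichments of 14.1, 15.5, 14.8 and 13.9, and it was the 1 region of the 5 with a peak in both ATAC libraries. The regions at Gm15564 and Gm24187 had a peak in ATAC replicate 2 and none in replicate 1, and the other 2 had none in either. Of 5 windows of 50 bases set across each region, 60%, 60%, 0%, 80% and 0% recurred in the genome for the first to the fifth. After every cytosine was turned to thymine in silico these shares were 80%, 100%, 60%, 80% and 0%.

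The strongest NC only regions were wider and had lower fold enrichment. The first, chrX:134621548-134622081, lay between genes with a fold enrichment of 9.59 in M-ATAC-NC replicate 1 and 10.8 in replicate 2, from 17 and 26 fragments. The second, chr9:6823836-6824417, also lay between genes, with 9.91 and 8.92. The third covered the start of AC132253.9, a lincRNA (chr19:9836688-9837189), with 9.06 and 8.40. The remaining pair were chr12:76570264-76570973, 488 bp from a start of Plekhg3 with 8.14 and 9.34, and chr3:87150234-87151285 in an intron of Kirrel, a nephrin-like adhesion protein, with 9.66 and 7.97. Both M-ATAC-NC libraries were at or under 10.8 in all 5, below the 13.9 that was the lowest value over the 5 leading M-ATAC only regions. Fold enrichment was used to pick these regions, so these values are a description.

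Shared regions reached the highest values. At Lars2 the fold enrichment was 49.98, 53.1, 48.3 and 52.5 in M-ATAC and 36.9 and 38.5 in M-ATAC-NC. At Gm13340, a pseudogene in an intron of Myo3a (chr2:22588532-22590014), it was 30.4, 29.7, 34.5 and 36.0 against 38.0 and 39.8. Of the 1454 runs of 30 bases in the Gm13340 region, 820 also stood in the mitochondrial genome. Runs of mitochondrial sequence were present in 3 of the 388 M-ATAC only (0.773%), 0 of the 1453 NC only and 2 of the 13836 shared regions (0.0145%). They were also present in 5 of the 36011 regions called in other combinations (0.0139%). Among NC only regions, 3 regions would be 0.206%. In the Gphn region the values were 36.7, 36.4, 40.5 and 41.9 against 24.2 and 29.02, and in the Gm26561 region 34.8, 31.3, 37.5 and 35.5 against 24.3 and 23.6. The fifth, in an intron of the kainate receptor gene Grik2 (chr10:49417026-49417683), had 17.8, 20.3, 21.2 and 21.1 against 17.9 and 18.01, and its groups overlapped. In fold enrichment, all 4 M-ATAC libraries stood above both controls at Lars2, Gphn and Gm26561 and below both at Gm13340. Summit pileups, not scaled to the library, did not keep this order. At Lars2 they were 216 to 226 fragments in M-ATAC, below the 254 and 249 of M-ATAC-NC. At Gm13340 all 4 M-ATAC pileups were above both controls, and at Gphn and Gm26561 the groups overlapped. How far reads of such repeated sequences were placed differently before and after conversion was not tested.

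**Figure D1:**
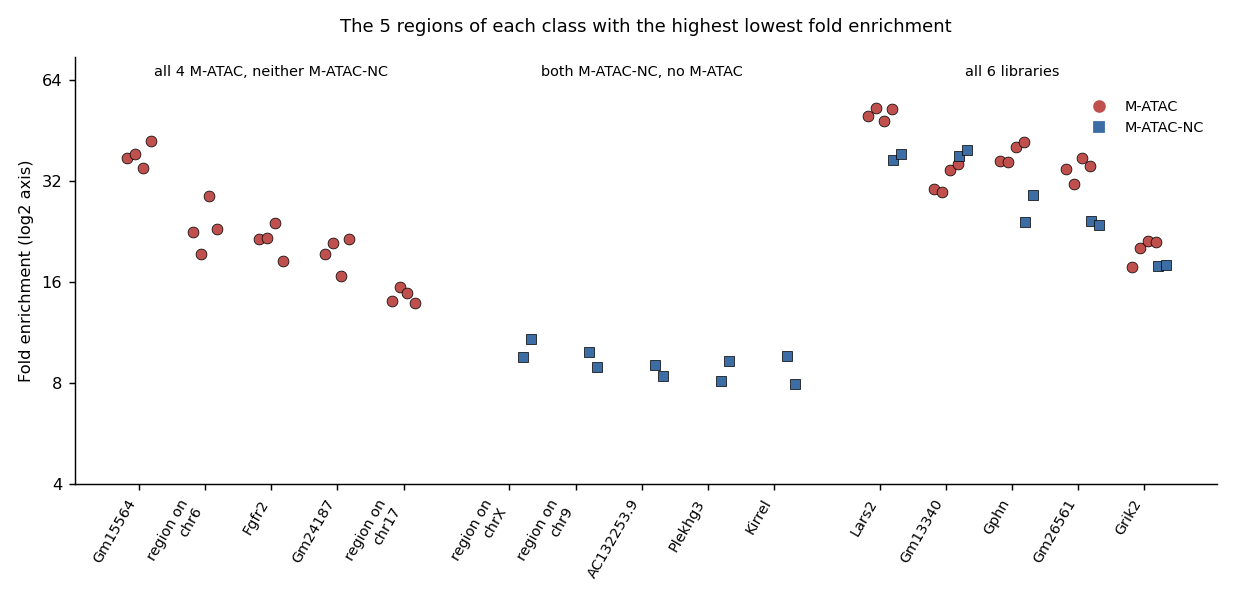
Fold enrichment at the highest summit (log scale, no unit) for the 5 strongest regions of each class, with 1 point per library that had a peak there. The 3 leading M-ATAC only regions reach 18.5 to 42.2 in M-ATAC with no peak in M-ATAC-NC, the NC only regions stay at or under 10.8, and the Lars2 region is the highest in all 4 M-ATAC libraries.

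M-ATAC replicates 1 and 2 stood apart from replicates 3 and 4. Across the 13836 shared regions, the Spearman correlation of log2 fold enrichment was 0.73 between M-ATAC 1 and 2, 0.70 between 3 and 4 and 0.71 between both M-ATAC-NC libraries, but 0.57 to 0.62 between M-ATAC 1 or 2 and M-ATAC 3 or 4. M-ATAC 3 and 4 were at least as close to M-ATAC-NC, with correlations of 0.62 to 0.65, as to M-ATAC 1 and 2, whereas M-ATAC 1 and 2 had correlations of 0.53 to 0.57 with M-ATAC-NC. These regions share the libraries and the peak caller, so the values are a description across regions. The labels name no batch that separates the replicates, and results are given below for each pair as well.

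Peak regions were narrower in every converted library than in both controls. The median width of peak regions was 244, 249, 269 and 253 bp in M-ATAC and 429 and 440 bp in M-ATAC-NC. All 4 converted libraries lay below both controls, by a difference of means of -180.75 bp (253.75 ± 10.8, SD, n = 4, against 434.5 ± 7.78, SD, n = 2). The exact permutation test, two-sided, gave p = 0.133, the smallest that the 15 arrangements of 4 against 2 allow, so no measure of this kind can pass 0.05, and over the 7 measures the adjusted p was 0.311. The number of regions was 26304, 29323, 29331 and 28026 in M-ATAC and 29293 and 32999 in M-ATAC-NC. In the shared regions alone the median widths were 318, 347, 366 and 342 bp against 537 and 577 bp, again without overlap. The 2 ATAC libraries, unconverted and made with another transposase, had median widths of 374 and 385 bp, between both groups.

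Median fold enrichment was above both controls in every converted list, and summit pileups were below them. The median fold enrichment was 7.03, 7.50, 6.78 and 6.92 in M-ATAC and 6.27 and 6.48 in M-ATAC-NC, a mean of 7.06 ± 0.312 (SD, n = 4) against 6.38 ± 0.150 (SD, n = 2). These groups did not overlap either, with an exact permutation p of 0.133 and an adjusted p of 0.311. Behind these ratios stood a median summit pileup of 10, 12, 12 and 11 fragments in M-ATAC and 15 and 18 in M-ATAC-NC. The most frequent background in each list was 0.305, 0.374, 0.496 and 0.421 fragments per base against 0.877 and 1.02. Numerator and denominator were thus both smaller after conversion, and depth and conversion cannot be told apart in the width or the fold enrichment. In shared regions the medians were 8.98, 9.97, 8.70 and 8.69 against 8.01 and 8.79, and there the groups overlapped.

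Most peak regions had a single summit in every library. The mean number of summits was 1.08, 1.10, 1.09 and 1.09 in M-ATAC and 1.09 and 1.11 in M-ATAC-NC, overlapping groups (exact permutation p = 0.4). In shared regions the order turned, with 1.17, 1.23, 1.20 and 1.20 against 1.13 and 1.17, and the 4 M-ATAC libraries were then above both controls. More than 1 summit was found in 15.4% to 20.5% of shared regions in M-ATAC and in 12.2% and 14.5% in M-ATAC-NC. The highest summits of an M-ATAC and an M-ATAC-NC library lay a median of 37 to 41 bp apart in shared regions, compared with 27 to 33 bp between M-ATAC libraries and 31 bp between the controls. Within 100 bp were 81.1% to 84.3% of the summits across the groups, 83.4% to 86.6% within M-ATAC and 86.4% between the controls.

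Promoter share and CpG content of whole lists overlapped between groups. Regions within 3 kb of a transcription start made up 50.8%, 50.7%, 47.2% and 48.1% of M-ATAC and 50.2% and 49.97% of M-ATAC-NC regions (exact permutation p = 0.8). The mean CpG content of the regions was 4.19, 4.07, 3.66 and 3.70 per 100 bp in M-ATAC and 3.8 and 3.7 in M-ATAC-NC (p = 0.667, exact permutation). M-ATAC 1 and 2 were above both controls in promoter share and CpG content, and M-ATAC 3 and 4 were at or below them. Within 100 bp of the highest summit, a window that does not depend on width, CpG content was 4.17, 4.06, 3.67 and 3.71 against 3.93 and 3.86, with the controls between the pairs of converted libraries. GC content was 56.5%, 56.2%, 54.7% and 55.0% in M-ATAC and 54.6% in both controls, so that all 4 were above, M-ATAC 3 and 4 by the smaller step (exact permutation p = 0.133, adjusted p = 0.311). With M-ATAC 3 and 4 alone, mean CpG content was 0.065 per 100 bp below the controls instead of 0.158 above with all 4.

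**Figure D2:**
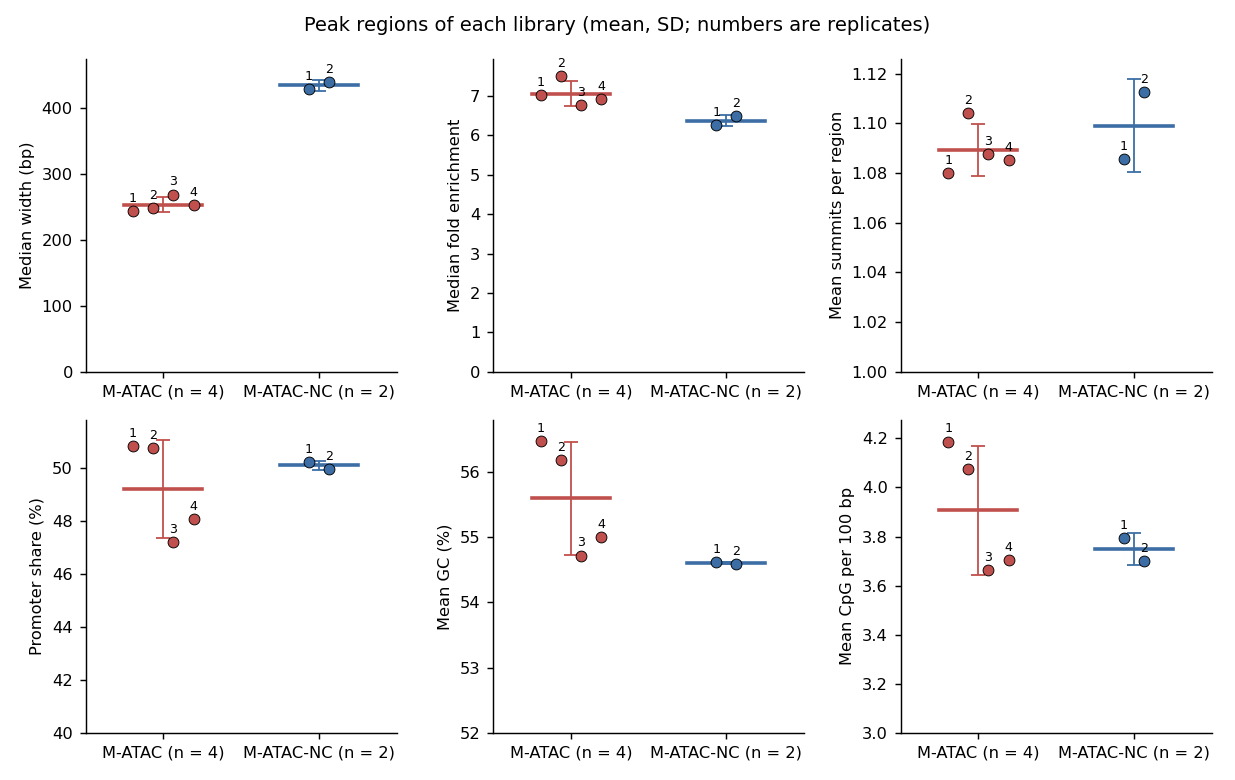
Measures of the peak lists, 1 numbered point per replicate, with the group mean as a line and the SD as a thin bar, for M-ATAC (4 libraries) and M-ATAC-NC (2 libraries). Median widths of 244 to 269 bp and of 429 and 440 bp do not overlap, while on axes that do not start at 0 promoter share and CpG content do, with M-ATAC 1 and 2 above M-ATAC 3 and 4.

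The classes differed from the shared regions in promoters and CpG. A promoter was within 3 kb of 41.5% of the M-ATAC only regions (95% Wilson interval 36.7% to 46.5%), 47.4% of the NC only (44.9% to 49.99%) and 60.2% of the shared regions (59.3% to 61.0%). The median CpG content was 1.46 per 100 bp in M-ATAC only regions (order-statistic 95% interval 1.23 to 1.68), 2.07 in NC only (1.88 to 2.22) and 3.54 in shared regions (3.29 to 3.74). Median GC content was 52.9% in M-ATAC only, 52.2% in NC only and 55.6% in shared regions. The 36011 regions called in other combinations had a promoter share of 35.9% and a median CpG content of 1.45, so that lower values than in shared regions were not particular to the one-sided classes. Regions are not replicates, so these intervals cover counting error alone and no test between classes was made.

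The gap between both one-sided classes depended on which libraries were counted. With M-ATAC 3 and 4 against both controls, 1338 regions were M-ATAC only and 2639 NC only, with promoter shares of 30.9% and 52.7% and median CpG of 1.09 and 2.57 per 100 bp. With M-ATAC 1 and 2, the corresponding numbers were 2067 and 3994 regions, 33.4% and 37.7%, and 1.27 and 1.45 per 100 bp. M-ATAC only regions were below NC only regions in both measures in these pairs, but without M-ATAC-NC replicate 2 the order in promoter share turned, to 44.7% in M-ATAC only and 39.2% in NC only regions, with median CpG of 1.66 and 1.71. GC content had the opposite order in the pairs, with 50.7% in M-ATAC only and 54.0% in NC only regions for M-ATAC 3 and 4, but 52.2% and 50.5% for M-ATAC 1 and 2.

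Union regions had a median width of 256.5 bp in M-ATAC only, 486 bp in NC only and 658.5 bp in shared regions. Widths were larger where more libraries were merged, and union regions of 1, 2 and 3 M-ATAC libraries and no control had medians of 171, 226 and 248.5 bp. Single peaks differed too, with medians in M-ATAC 1 of 192 bp in M-ATAC only and 318 bp in shared regions. What merging added to the widths was not tested. Within the M-ATAC-NC lists, NC only peaks had median widths of 359 and 373 bp, below the 429 and 440 bp of all regions. Peaks of the M-ATAC only class had a −log10 q of at least 5 in 77.1%, 88.1%, 75% and 70.4% of cases in M-ATAC 1 to 4. For the NC only class this share was 34.8% and 52.1% in the controls, and for shared regions it was 90.0% to 97.6% in the 6 libraries. The calls rest on these scores, and NC only regions had to be called in 2 libraries where M-ATAC only regions had to be called in 4, so the shares are a description. Median fold enrichment in the defining libraries was 6.41 to 7.76 in M-ATAC only regions and 4.75 and 4.94 in NC only regions, values that the class rule used in part.

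**Figure D3:**
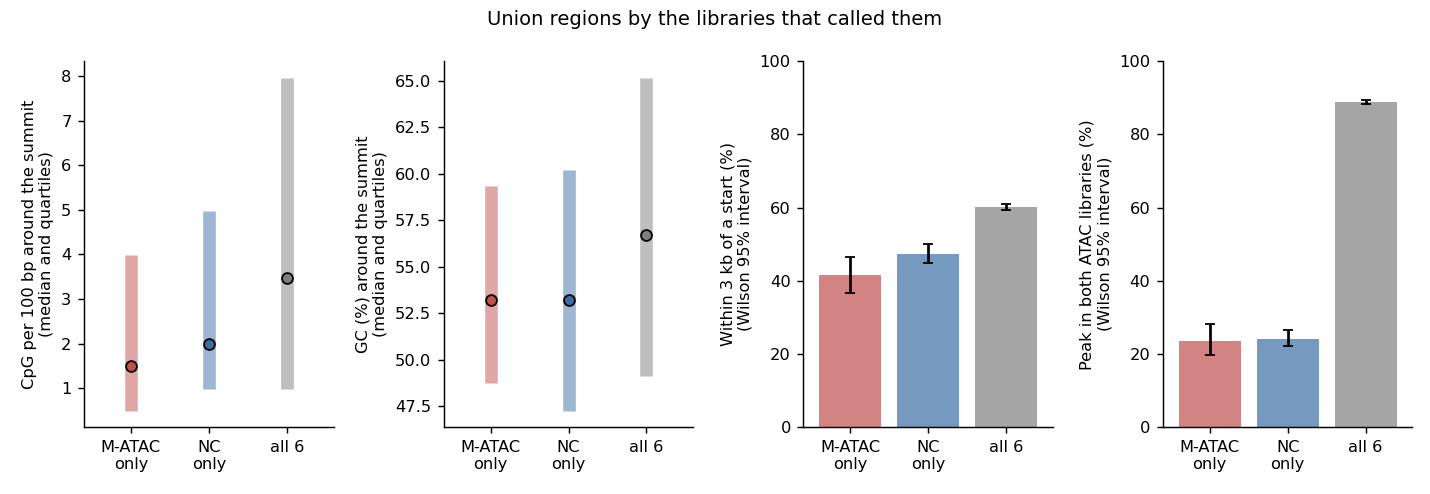
CpG per 100 bp and GC percent within 100 bp of the highest summit (points are medians, thick bars the quartiles), and the percent of regions within 3 kb of a start and with a peak in both ATAC libraries (bars with 95% Wilson intervals), for 388 M-ATAC only, 1453 NC only and 13836 shared regions (all 6). The summit medians are 1.49, 1.99 and 3.48 CpG per 100 bp, and support in ATAC is 23.7%, 24.2% and 88.9%.

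Libraries that the classes did not use were read at the same regions. A peak counted if it overlapped the region by at least 1 bp, so the wider shared regions had more room for one. Both ATAC libraries had a peak in 88.9% of shared regions (95% Wilson interval 88.3% to 89.4%), but in 23.7% of M-ATAC only (19.8% to 28.2%) and 24.2% of NC only regions (22.1% to 26.5%). No ATAC library had one in 45.1%, 43.4% and 2.39% of M-ATAC only, NC only and shared regions. Regions called in other combinations had such a peak in 20.6%. The likeness of both one-sided classes depended on the libraries, with 39.8% of M-ATAC only and 13.3% of NC only regions without M-ATAC-NC replicate 2, 29.1% and 11.6% without replicate 1, and 9.53% and 36.8% with M-ATAC 1 and 2 alone. Shared regions were above both classes in each of these, at 84.95% to 87.7%. Both CTCF ChIP libraries had a peak in 14.9% of M-ATAC only, 14.04% of NC only and 11.99% of shared regions. CTCF is the zinc finger protein of insulators, and the Wilson intervals of the M-ATAC only class, 11.7% to 18.8%, and the NC only class, 12.3% to 15.9%, overlapped with that of shared regions, 11.5% to 12.5%.

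Between regions of 1 library and regions of 6, support in ATAC was larger with each further M-ATAC library. Union regions were also wider with each, and the part of width in this support was not tested. Of the 9478 union regions called in a single M-ATAC library and no control, 28.1% were near a promoter and 3.12% had a peak in both ATAC libraries. For the 6139 called in a single M-ATAC-NC library, these shares were 36.9% and 6.34%. Regions in 2 and 3 M-ATAC libraries and no control numbered 2749 and 1028, and their support in both ATAC libraries was 6.84% and 11.9%. A further 3739 regions missed a single M-ATAC library while both controls had a peak, and 65.3% of them were found in both ATAC libraries. Regions lacking 1 control alone numbered 1161, with 43.9% in both.

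**Figure D4:**
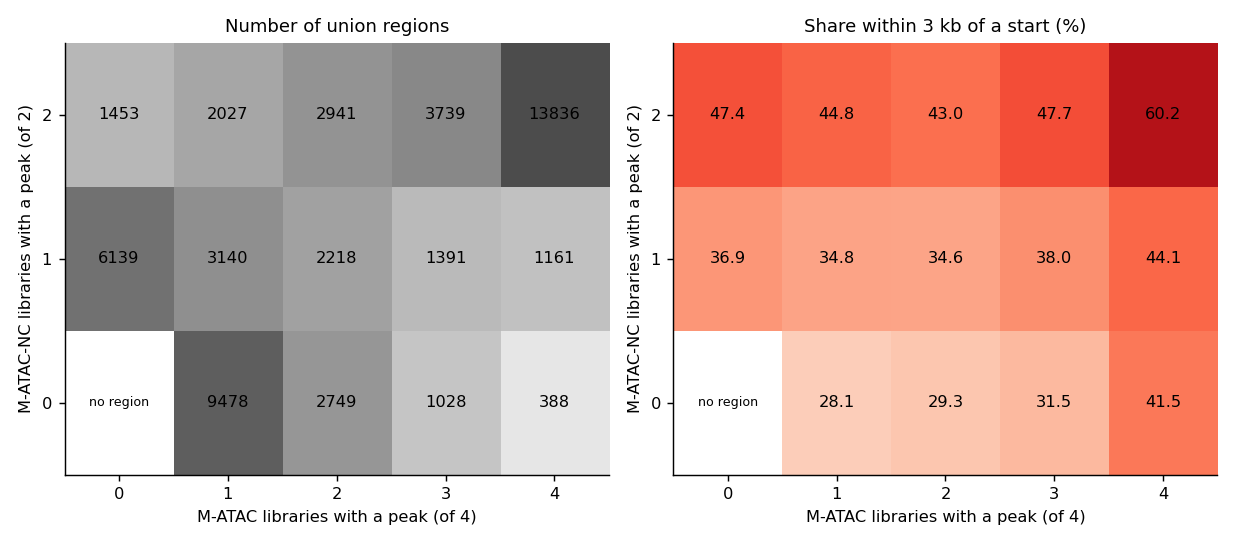
Union regions by the number of M-ATAC (0 to 4) and M-ATAC-NC (0 to 2) libraries with a peak, with the number of regions and the share near a promoter in each cell. The cell with all 6 libraries holds 13836 regions and the highest promoter share, 60.2%.

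Methylation was low in every class. It was read from the authors' table of merged M-ATAC replicates, which gives no replicate error, over cytosines with at least 5 reads. The mean methylation was 3.10% over 6751 cytosines of M-ATAC only regions, 3.50% over 9744 of NC only regions and 1.06% over 591504 of shared regions. Median coverage of these cytosines was 11, 7 and 13 reads. At least 1 such cytosine was present in 90.7% of M-ATAC only, 63.7% of NC only and 97.1% of shared regions. A mean methylation of 20% or more was found in 13.4% of M-ATAC only (9.91% to 17.8%), 9.16% of NC only (7.20% to 11.6%) and 5.47% of shared regions (5.08% to 5.88%) with 3 such cytosines. The merged list, to which the table is limited, held a peak in 99.7%, 77.6% and 100% of the M-ATAC only, NC only and shared regions. Most NC only regions, 1127 of 1453, thus held a peak once M-ATAC replicates were merged. The table and the list rest on M-ATAC replicates, whose peaks also defined the classes. Coverage, the presence of cytosines and these shares therefore follow the class rule in part.

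Genes with a region of each class within 3 kb of a start were read in the authors' merged expression table. Median expression was 7.91 TPM for 151 genes of M-ATAC only regions, 2.33 TPM for 640 of NC only regions and 14.9 TPM for 7596 of shared regions. At least 1 TPM was recorded for 67.5%, 58.0% and 82.2% of them. The 9537 genes of regions called in other combinations had a median of 3.09 TPM and at least 1 TPM in 59.6%, so lower expression than at shared promoters was not particular to NC only regions. No replicates of expression enter these values.

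Windows of sequence that recur in the genome were counted in each class. On average, 4.18% of 50-base windows in M-ATAC only regions, 3.23% in NC only and 2.00% in shared regions recurred. After conversion in silico these means were 8.40%, 5.91% and 4.76%, beside 2.47% and 5.49% before and after in regions called in other combinations. In 86.3% of M-ATAC only, 90.3% of NC only and 89.8% of shared regions no window lost its uniqueness through conversion. By this count, most regions of all 3 classes kept the same unique windows. Only exact matches of 5 windows in each region were counted, and how reads were placed was not tested.

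In the shared regions, fold enrichment was compared region by region with limma, on log2 values centred on the median of each library. At an adjusted p of 0.05, limma called 0 of 13836 regions (0%), with a smallest adjusted p of 0.124. At an unadjusted p under 0.05 there were 1456 regions (10.5%), 979 with higher and 477 with lower values in M-ATAC. The difference was within 1 on the log2 scale, a factor of 2, in 99.93% of the regions, and its median standard error was 0.245. All 4 M-ATAC libraries were above both controls in 1727 regions (12.5%) and below both in 1161 (8.39%). Without centring 7 regions were called and 1596 of 1752 at an unadjusted p under 0.05 had higher values in M-ATAC, with the median of all regions moved from 0.02 to 0.14, and with quantile normalization 3 were called and 809 of 1504 had higher values. With M-ATAC 3 and 4 alone 4 regions were called, and with M-ATAC 1 and 2 alone, an analysis added after the data were seen, 219. Each control is an aliquot of an M-ATAC reaction that the labels do not name. With a replicate block 596 regions were called when M-ATAC 1 and 2 were paired with the controls, and 31 when M-ATAC 3 and 4 were.

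Differences of the named regions are given without a call, since none passed. At Lars2 the difference of M-ATAC from M-ATAC-NC was 0.32 ± 0.06 (SE, log2 fold enrichment), with the smallest adjusted p of 0.124 (limma). The Lars2 difference was 0.41 when the centred pileup was compared in place of the fold enrichment. A region over the start of Etfrf1 (chr6:145210673-145211761), a mitochondrial electron transfer regulator, had fold enrichments of 23.4, 24.3, 20.9 and 19.7 in M-ATAC and 12.2 and 13.5 in M-ATAC-NC. The start of Asah1 (chr8:41373985-41375100), the acid ceramidase gene, had 21.5, 21.02, 22.6 and 19.8 against 12.6 and 11.9. Uncentred pileups of the groups overlapped at both, with 70 to 93 fragments against 75 and 94 at Etfrf1 and 54 to 73 against 72 and 69 at Asah1. The median pileup of all shared regions was 15, 19, 17 and 16 in M-ATAC and 23 and 29 in M-ATAC-NC. Like counts are therefore not like signal relative to the library. Adjusted p was 0.153 for Etfrf1 and for Asah1 (limma). Their differences of 0.66 at Etfrf1 and 0.68 at Asah1 were 0.34 and 1.33 when values were averaged over all summits of the region. An intronic region of Lrrc4b, a synaptic adhesion protein (chr7:44433363-44433828), had 14.2, 21.4, 12.7 and 13.8 against 8.52 and 5.41. Its difference was 1.05 ± 0.22 on the log2 scale with an adjusted p of 0.153 (limma), and M-ATAC replicate 2 was the highest. Without M-ATAC-NC replicate 1 or 2 the Lrrc4b difference was 1.45 or 0.66.

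In the other direction stood the start of Fnta, the alpha subunit of farnesyltransferase (chr8:26015088-26015762, 10.8 CpG per 100 bp). Its fold enrichments were 6.79, 11.6, 7.98 and 6.02 in M-ATAC and 18.1 and 12.3 in M-ATAC-NC. The region at Rnu3b2, a U3 snoRNA gene in an intron of Tex14 (chr11:87471336-87471933), had 6.80, 5.81, 8.22 and 6.25 against 12.5 and 13.1. All 4 M-ATAC values were below both controls in each, with differences of -1.04 ± 0.25 for both and adjusted p of 0.215 (limma). Intergenic regions chr10:29019578-29020414 and chr1:94034972-94035585 had differences of -1.06 ± 0.26 and -1 ± 0.26. Gm13340 had -0.37 ± 0.10, but 0.71 when the pileup was compared in place of the fold enrichment.

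The difference from the controls followed base composition in opposite ways in both pairs of M-ATAC libraries. Across the 13836 shared regions, the Spearman correlation between the GC content around the summit and the log2 difference from the mean of M-ATAC-NC was 0.26 and 0.18 for M-ATAC 1 and 2 and -0.10 and -0.09 for M-ATAC 3 and 4. Between the controls it was 0.01. In the 1384 regions with the lowest GC, with a median of 42.3%, the median difference was -0.19 and -0.11 for M-ATAC 1 and 2 but 0.06 and 0.02 for 3 and 4. In the 1384 with the highest GC, with a median GC of 73.6%, it was 0.15 and 0.08 against -0.05 and -0.08. Regions with all M-ATAC libraries above the controls had a median GC of 58.7% and a promoter in 69.4%, and those with all below had 55.7% and 57.2%, beside 56.7% and 60.2% for all shared regions. All of these correlations are weak and are described without a test.

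**Figure D5:**
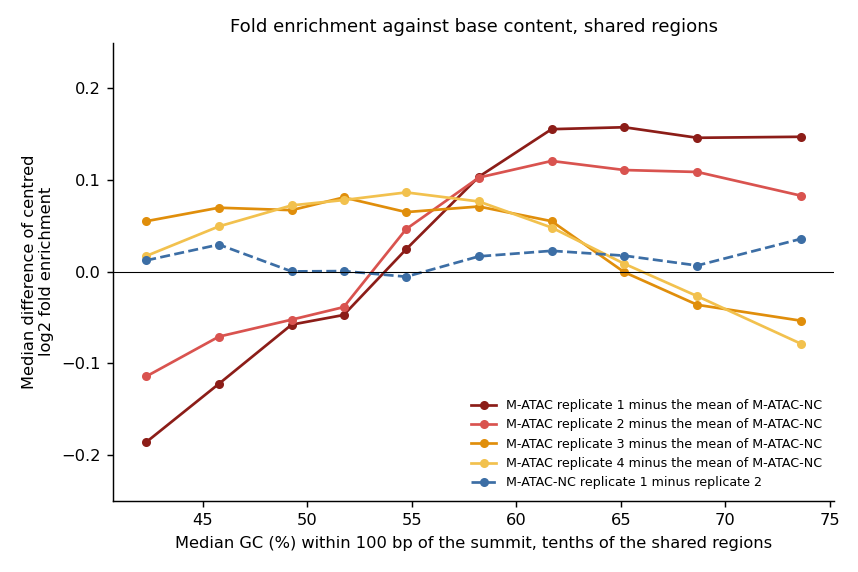
Median log2 difference of fold enrichment from the mean of M-ATAC-NC in 10 bins of the shared regions by GC content within 100 bp of the summit, 1 line per M-ATAC library and 1 for M-ATAC-NC replicate 1 minus replicate 2. M-ATAC 1 and 2 run from -0.19 and -0.11 to 0.15 and 0.08, and M-ATAC 3 and 4 from 0.06 and 0.02 to -0.05 and -0.08.

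Gene groups were described by the class of the regions within 3 kb of their starts. Over all 21938 protein-coding genes, 37.1% had a shared region, 2.79% had an NC only region, 0.62% had an M-ATAC only region and 33.4% had no region. Of 16 housekeeping genes 14 had a shared region, as did 43 of 86 ribosomal protein genes. Ribosomal protein genes had an NC only region in 3 cases and an M-ATAC only region in 0. The median difference of M-ATAC from M-ATAC-NC was 0.18 for the 14 housekeeping regions and 0.08 for the 43 ribosomal regions on the log2 scale, beside 0.02 for all shared regions. It was 0.06 and 0.04 when the centred pileup was compared, and 0.04 for the ribosomal regions with M-ATAC 3 and 4 alone. Feeder fibroblast markers had a shared region in 2 of 18 cases, those of Fn1 and Vim, and no region in 5.

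Pluripotency factors, which hold the stem cell state, all had a region near a start in at least 1 library. A shared region was present at 10 of the 21 genes, an NC only region at Nr5a2 and an M-ATAC only region at none. At Pou5f1, which encodes the core factor OCT4, the shared region (chr17:35503749-35504404) had fold enrichments of 7.21, 6.85, 5.96 and 7.11 in M-ATAC and 5.29 and 4.73 in M-ATAC-NC. At Klf5, a zinc finger factor of the stem cell network (chr14:99298336-99298775), the values were 14.7, 21.4, 14.6 and 15.7 against 10.4 and 12.9. At Klf2, its relative (chr8:72318719-72319320), they were 9.78, 9.98, 11 and 10.7 against 5.66 and 7.18. All 4 converted libraries were above both controls at these 3 genes, which are examples out of the 10. On centred values, the same held in 1727 of all 13836 shared regions (12.5%). The differences were 0.32 ± 0.25, 0.39 ± 0.16 and 0.59 ± 0.23 on the log2 scale, with adjusted p of 0.673, 0.407 and 0.388 (limma). In the 10 shared regions the difference ranged from 0.03, at Zfp42, to 0.59, with a median of 0.31. It was above 0 in all 10 with centring, but in 9 with quantile normalization and 8 with M-ATAC 3 and 4 alone. When the centred pileup was compared it was above 0 in 6, with a median of 0.07 and the Pou5f1 region at -0.05. Of all 13836 shared regions, 7337 were above 0 with centring and 6903 with quantile normalization. Those numbers were 7440 with M-ATAC 3 and 4 alone and 7107 on the centred pileup. Without M-ATAC-NC replicate 2 the Pou5f1 difference was 0.18. Nanog had a peak in M-ATAC replicate 2 alone, with a fold enrichment of 6.21.

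Of 14 enzymes and readers of DNA methylation, 10 had a shared region, and Tet2 was the 1 gene of all lists with an M-ATAC only region. Tet2 encodes a dioxygenase that oxidizes methylcytosine. Its region (chr3:133544250-133544755) held 15.0 CpG per 100 bp, with fold enrichments of 8.01, 8.14, 7.39 and 8.29 in M-ATAC and a mean methylation of 0.573% over 100 cytosines. Dnmt3l, the cofactor of the de novo methyltransferases, had an NC only region beside others. At Uhrf1, which recruits maintenance methylation to hemimethylated DNA (chr17:56303966-56304543), fold enrichments were 12.9, 12.7, 9.51 and 7.72 against 3.40 and 6.03. The Uhrf1 difference of 1.10 ± 0.27 was the highest of all shared regions, with an adjusted p of 0.215 (limma). At Dnmt1, the maintenance methyltransferase, the values of 9.85, 12.7, 7.05 and 8.28 overlapped with 7.21 and 7.53.

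Lineage factors, which are kept silent in stem cells, had NC only regions at 4 of 20 genes, beside 2.79% of all protein-coding genes, and shared regions at another 4. Pax3, a neural crest factor (chr1:78196853-78197233), had a fold enrichment of 6.26 and 5.05 in the controls. Values were 6.07 and 5.02 at Mixl1, a mesendoderm factor (chr1:180696635-180697204), 3.36 and 5.18 at Sox1, a neural factor (chr8:12395124-12395648), and 4.72 and 4.89 at Eomes, another mesendoderm factor (chr9:118478816-118479524). In M-ATAC-NC replicate 1, Pax3 and Mixl1 were close to the median of 6.27 of all its regions and Sox1 and Eomes were below it. In M-ATAC-NC replicate 2, all 4 were below the median of 6.48 of its regions. The 4 regions held 6.04, 11.6, 10.7 and 12.4 CpG per 100 bp. At Sox17, an endoderm factor with a shared region (chr1:4492470-4493797), M-ATAC had 3.86, 4.38, 4.32 and 4.71 and M-ATAC-NC 4.84 and 5.87. Of 39 Hox genes 20 had no region, Hoxc13 had a shared region and Hoxa7 an NC only region with 4.6 and 4.49. Of 16 germline genes, whose promoters are often methylated, Dazl alone had a shared region, with 14.4, 9, 8.36 and 6.57 against 5.20 and 6.64. No list was tested as a set, and with lists this short a single gene moves a share by several percent.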

How the data were processed

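Peak lists of 4 M-ATAC and 2 M-ATAC-NC libraries of mESC were compared, and 2 ATAC and 2 CTCF ChIP lists served as readouts. The submitters' processing notes name Trim Galore 0.4.4, Bismark 0.18.1, Bowtie2, SAMtools 1.3, deepTools and the build mm10. The authors aligned M-ATAC with Bismark, discarded duplicates and poorly aligned reads, and ran MACS2 on every library separately (no model, q of 0.01, summits called). The aligner of M-ATAC-NC and the M-ATAC replicates that were merged are not given in the sources used here. The deposited lists describe every summit by its offset, a score, the −log10 of p and of q, and a ratio. That ratio is the fold enrichment of pileup over local background, with a constant added to each by the caller. The authors' methylation table lists, per cytosine of merged M-ATAC replicates, the count of reads with and without methylation and their percent. The deposited expression table holds TPM of merged replicates.

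Lines were collapsed to distinct regions on 21 chromosomes, and fold enrichment was that of the highest summit. Summit pileup and background in fragments were recovered from the fold enrichment and −log10 p, which gave whole fragments for over 99.9% of regions, and the number of reads of a library was not used here. Promoters were within 3 kb of a start in GENCODE release 21 for mouse, and base content was read from GRCm38. A gene counted under every class that had a region near a start. Uniqueness was checked at 5 windows of 50 bases in each region, and shared sequence with runs of 30 bases. Cytosines needed 5 reads.

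Library measures were tested with exact two-sided permutation tests, adjusted by Benjamini-Hochberg over 7 measures. Shared regions were compared with limma 3.58.1 (trend) on log2 ratios, adjusted over all 13836, after a test on simulated data. Where the pileup was compared, log2 of the pileup plus 1 was centred on the median of each library. Classes were described with 95% Wilson or order-statistic intervals, which cover counting error only, since regions of 1 library are not replicates. Regions were named as the 5 of each class with the highest lowest fold enrichment in its defining libraries, and, as none passed limma, the 5 of smallest p in each direction, all outside 1 chromosome not reported here. Genes of the lists were named where their class or values were described. The regions, lists and names were chosen with earlier results of these data known. Computations used R 4.3.3 and Python 3.11.15 with scipy 1.17.1, pandas 2.3.3, numba 0.67.0 and numpy 2.4.6.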

Additional observations from a re-analysis of the deposited data

How the results depend on the processing

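Of 75 alternatives of the 7 library measures, 63 kept the direction of the difference of M-ATAC from M-ATAC-NC, and width, fold enrichment and GC content kept it in every alternative tried. Summits turned to 0.0050 with a −log10 q of at least 5 and to 0.050 in shared regions alone, CpG content to -0.065 with M-ATAC 3 and 4 only, and CpG at the summit to -0.013 with a −log10 q of at least 5 and to -0.21 with M-ATAC 3 and 4 only. Leaving out 1 library gave differences of -186.25 to -175.25 bp in width, -0.023 to 0.0036 in summits, 0.535 to 0.788 in fold enrichment, -1.42 to -0.214 in promoter percent, 0.065 to 0.239 in CpG, 0.701 to 1.29 in GC percent and -0.086 to 0.081 in CpG at the summit. The cause was not tested.

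The labels number M-ATAC 1 to 4 and M-ATAC-NC 1 and 2, and do not say which M-ATAC reaction each control was taken from. Deviations from the mean of each pair of M-ATAC libraries were correlated with those of M-ATAC-NC 1 and 2 from their own mean. The correlation was -0.01 for M-ATAC 1 and 2 and 0.00 for M-ATAC 3 and 4. With a replicate block by the numbers in the labels, the promoter share turned to 0.682. With that block limma called 596 regions, beside 219 for the same 4 libraries without it. With the replicate block of M-ATAC 3 and 4 as 1 and 2, CpG was -0.065, CpG at the summit -0.21 and limma called 31 regions. With 2 pairs the smallest p of the permutation test is 0.5. Both pairings are therefore given as alternatives. Without pairing limma called 7 regions when values were not centred, 3 with quantile normalization, 4 with the mean over summits, 2 with a −log10 q of at least 5 in each library, 4 with M-ATAC 3 and 4 only, 4 on the pileup and 0 above the median fold enrichment, and 0 to 3 when 1 library was left out.

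The classes followed the libraries counted, and without M-ATAC-NC replicate 2 the promoter share was 44.7% in M-ATAC only and 39.2% in NC only regions, the reverse of the order with all 6. M-ATAC only, NC only and shared regions numbered 525 to 1260, 1758 to 5154 and 14102 to 15337 when 1 library was left out. Their promoter shares were then 36.4% to 44.7%, 39.2% to 50.7% and 57.98% to 60.3%, median CpG 1.3 to 1.66, 1.71 to 2.34 and 2.88 to 3.61, and support in both ATAC libraries 16.7% to 39.8%, 11.6% to 28.6% and 86.4% to 87.9%. With M-ATAC 3 and 4 only there were 1338 M-ATAC only and 2639 NC only regions, promoter shares of 30.9%, 52.7% and 54.9%, median CpG of 1.09, 2.57 and 2.36, and ATAC support of 15.02%, 31.2% and 83.6%. With M-ATAC 1 and 2 only there were 2067 and 3994 regions, promoter shares of 33.4% and 37.7%, median CpG of 1.45 in NC only, and ATAC support of 9.53%, 36.8% and 84.95%. With peaks that cover at least 50% of a union region there were 5918 NC only and 4648 shared regions, with promoter shares of 55.9% and 56.1%, median CpG of 2.64 and 2.73 and ATAC support of 59.3% and 91.2%. With a −log10 q of at least 5 the shared regions had 62.3% promoters and 4.11 CpG, and ATAC support was 34.5%, 48.2% and 93.4%. Promoters within 1 kb made up 29.6%, 38.7% and 54.2%. With 2 of 4 M-ATAC libraries required, M-ATAC only regions numbered 4165 and NC only regions, allowed 1, 3480. This, the pileup, the shared regions alone and limma on M-ATAC 1 and 2 were chosen after seeing the data.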
